A study of Mus musculus with 10 samples.

Results

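The genes described here are 35 markers of the cell cycle, 18 that are expressed in S phase and 17 that are expressed in G2 and M phase, of the 47629 genes named in the plates or the 10x libraries. They were chosen by name, as listed genes, and by no rule on values in these samples, although earlier results of these data were known. S phase members are *Mcm2*, *Mcm3*, *Mcm4*, *Mcm5*, *Mcm6*, *Mcm7*, *Pcna*, *Hells*, *Uhrf1*, *Lig1*, *Ccne1*, *Ccne2*, *Rrm1*, *Rrm2*, *Tyms*, *Gins2*, *Cdc6*, and *Cdt1*. G2/M members are *Mki67*, *Top2a*, *Birc5*, *Cenpa*, *Cenpf*, *Ube2c*, *Cdk1*, *Ccnb1*, *Ccnb2*, *Cdc20*, *Plk1*, *Tpx2*, *Prc1*, *Cdca8*, *Aurka*, *Aurkb*, and *Bub1*. All 35 were measured in both experiments and all 35 passed the filter on low counts in the plates.

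Lymphatic endothelial cells (LECs) of mouse ear skin were sorted singly (CD31+ PDPN+ CD45- CD11b- Ter119-) into the wells of 8 Smart-seq plates, with 2 plates each of Tie1fl/fl, Prox1CreERT2;Tie1fl/fl, Tie1fl/fl,Tie2fl/fl, and Prox1CreERT2;Tie1fl/fl,Tie2fl/fl mice. All 4 genotypes, the Cre-negative controls included, received 62.5 µg of 4-hydroxytamoxifen on P1 to P5, which activates Cre in *Prox1*-expressing cells and deletes Tie1, or Tie1 and Tie2 (Tie1/-2), there. In the third model, skin cells of C57Bl/6j mice that were sorted on CD31 after IgG or an antibody that blocks angiopoietin-2 (Ang2 Ab), both at 20 mg/kg from P16 to P21, gave 1 10x library each. The ages in the labels are P1-P5 for the plates and P1-P21 for the 10x libraries. These ranges cover the days of treatment rather than a day of sampling, and the study describes sampling of the plate LECs well after P5. Tie1fl/fl plate 1 and Tie1-deleted plate 1 are labelled female, and all other samples are labelled male. The number of mice behind a plate or library is not given, so p-values over plates measure only the spread between plates, which may be technical.

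DNA is copied in S phase and divided in M phase, and each phase has its own set of transcripts. The MCM proteins form the helicase that opens the DNA, Cdc6 and Cdt1 load it, Pcna is the sliding clamp of the polymerases, and Rrm1, Rrm2, and Tyms make nucleotides. E2F factors drive this S phase group once the retinoblastoma protein is phosphorylated. The G2/M group holds cyclin B with its kinase Cdk1, the aurora and polo kinases, spindle and kinetochore proteins, and Cdc20, which starts anaphase. Its promoters are known for a CHR element (cell cycle genes homology region), bound by the DREAM and MuvB complexes, together with CCAAT boxes bound by NF-Y. Lymphatic vessels grow by division of LECs in young skin, and most endothelial cells become quiescent as vessels mature.

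E2F letters were found mainly in promoters of S phase members and CHR letters mainly in those of G2/M members. RefSeq promoters (GRCm38.p6, 250 bases before to 50 bases after the start of transcription) were found for 30 of the 35 members, 15 of each phase, and *Mcm4*, *Ccne2*, *Gins2*, *Tpx2*, and *Aurkb* had no entry. The E2F letters searched were TTTGGCGC, TTTCGCGC, TTTCCCGC, and TTTGCCGC, the CHR letters were TTTGAA, and the NF-Y letters were CCAAT, each on both strands. An E2F match was present in 9 of 15 S phase promoters (60%), in 1 of 15 G2/M promoters (6.67%, *Cdk1*), and in 2.61% of 27025 promoters of all genes. A CHR match was present in 1 of 15 S phase promoters (*Mcm2*), in 12 of 15 G2/M promoters (80%), and in 20.2% of all promoters. CCAAT matches were present in 9 S phase and 14 G2/M promoters, against 41.1% of all promoters. In *Mcm5* and *Mcm6*, E2F matches on opposite strands overlap each other, and in *Mcm7* an E2F match shares a base with a CCAAT match. A match is a description of the letters and not a site of binding, and these shares were not tested.

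The promoters of the 3 members of each phase that had a match and the highest level in cycling LECs of the 10x libraries are printed, since they show the elements in place. All are written 5′ to 3′ on the strand of the gene. Capitals mark the E2F letters in *Lig1* (chr7:13278656-13278875, plus strand), *Mcm7* (chr5:138171834-138172053, minus strand), and *Mcm3* (chr1:20820263-20820482, minus strand). They mark the CHR letters in *Top2a* (chr11:99024140-99024439, minus strand), *Mki67* (chr7:135716330-135716549, minus strand), and *Cenpf* (chr1:189688037-189688256, minus strand). Each holds the start of transcription and ends 50 bases after it.
Lig1: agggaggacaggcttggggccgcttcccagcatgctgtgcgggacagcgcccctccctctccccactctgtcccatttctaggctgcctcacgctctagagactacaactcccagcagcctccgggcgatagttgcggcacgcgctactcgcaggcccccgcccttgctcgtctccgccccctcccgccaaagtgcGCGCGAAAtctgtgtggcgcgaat
Mcm7: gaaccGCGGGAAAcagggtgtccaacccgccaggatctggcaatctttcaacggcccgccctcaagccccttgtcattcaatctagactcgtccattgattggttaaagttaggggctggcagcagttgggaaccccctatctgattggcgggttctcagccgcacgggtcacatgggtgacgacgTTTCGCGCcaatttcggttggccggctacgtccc
Mcm3: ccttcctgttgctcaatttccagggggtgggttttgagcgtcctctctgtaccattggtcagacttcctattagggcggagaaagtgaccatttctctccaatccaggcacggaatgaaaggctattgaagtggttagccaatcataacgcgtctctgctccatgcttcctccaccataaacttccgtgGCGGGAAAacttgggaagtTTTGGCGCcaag
Top2a: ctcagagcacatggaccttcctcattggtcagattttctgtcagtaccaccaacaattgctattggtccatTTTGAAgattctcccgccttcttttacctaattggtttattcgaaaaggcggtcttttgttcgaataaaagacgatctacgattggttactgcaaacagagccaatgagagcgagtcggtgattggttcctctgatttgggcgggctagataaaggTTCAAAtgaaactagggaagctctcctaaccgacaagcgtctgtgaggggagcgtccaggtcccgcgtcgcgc
Mki67: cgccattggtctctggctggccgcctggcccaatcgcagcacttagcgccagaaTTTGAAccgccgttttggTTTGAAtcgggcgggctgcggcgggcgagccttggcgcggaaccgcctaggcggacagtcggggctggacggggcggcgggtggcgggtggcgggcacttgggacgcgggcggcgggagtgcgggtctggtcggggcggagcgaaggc
Cenpf: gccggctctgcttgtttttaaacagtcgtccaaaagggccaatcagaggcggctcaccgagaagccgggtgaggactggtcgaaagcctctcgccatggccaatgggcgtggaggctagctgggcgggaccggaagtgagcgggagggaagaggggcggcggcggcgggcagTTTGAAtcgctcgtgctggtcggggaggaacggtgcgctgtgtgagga
The capitals nearest to the start begin at base 26 after the start in *Lig1*, at 16 in *Mcm7*, at 19 in *Mcm3*, and at 2 in *Cenpf*. In *Top2a* they begin 23 bases and in *Mki67* 98 bases before the start. Within 100 bases before to 50 after the start, 6 of 15 S phase promoters held an E2F match (40%), against 1.45% of all promoters, and 12 of 15 G2/M promoters held a CHR match and 13 of 15 held CCAAT, against 9.23% and 26.3% of all promoters.

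**Figure D1:**
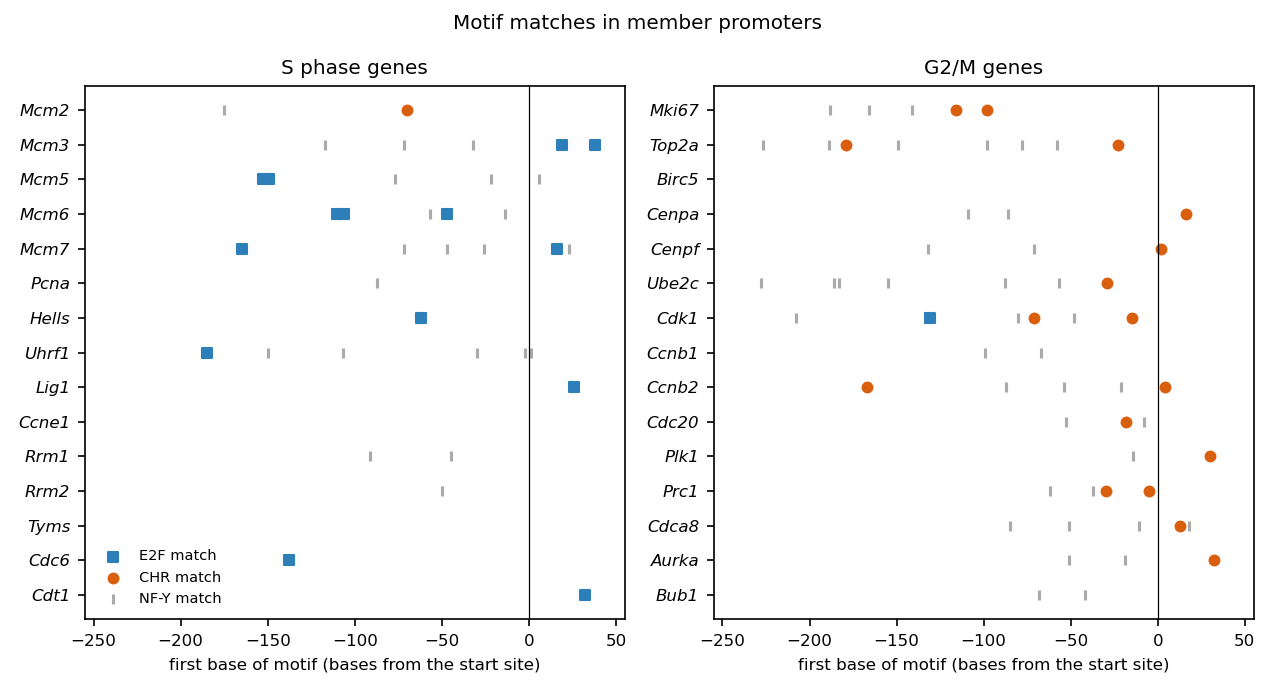
Positions of motif matches in the promoters of the 15 S phase (left) and 15 G2/M (right) members with a RefSeq entry. The x axis is the first base of the match in bases from the start of transcription (0, line), squares are E2F, circles CHR, and ticks CCAAT (NF-Y) matches. E2F matches lie in 9 S phase rows and 1 G2/M row, and CHR matches in 12 G2/M rows and 1 S phase row.

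The targeted genes were lower on every plate labelled deleted. Summed over the LECs of a plate, *Tie1* was at 2221 and 2866 CPM (counts scaled to library size by TMM) in Tie1fl/fl and at 683 and 658 in Tie1-deleted plates, and at 2757 and 2543 in Tie1fl/fl,Tie2fl/fl and 739 and 454 in Tie1/-2-deleted plates. *Tek*, which encodes Tie2 and is targeted in the second strain only, was at 215 and 335 CPM in Tie1fl/fl, 215 and 247 in Tie1-deleted, 316 and 287 in Tie1fl/fl,Tie2fl/fl, and 32.4 and 50.9 in Tie1/-2-deleted plates. Both genes fell with Tie1/-2 deletion (log2 fold changes of -2.15 and -2.86, edgeR adjusted p = 0.00686 and 0.005). *Tie1* did not pass the test in the Tie1 strain (log2 fold change -1.92, edgeR adjusted p = 0.285), where no gene did. Of 3048 wells, 3026 were kept and 2725 were taken as LECs, by the sort and because their cluster did not show the markers of another cell type. *Prox1* was detected in 99.4% and *Mmrn1* in 99.9% of them. The wells removed lay in a cluster with fibroblast markers (273 wells, 97.1% with *Prox1*) and a cluster with keratinocyte markers (28 wells, 96.4% with *Prox1*). A cluster led by neuronal genes such as *Tubb3* (23 wells) and one led by *Gm10800* (82 wells) were kept, with *Prox1* in 95.7% and 98.8% of wells and a median depth under 1 in 3 of that of their plates. The LECs of a plate summed to 66950089 to 103966534 counts. The 10x libraries held 42337184 and 31720670 UMIs (molecules counted) in 4685 and 4331 barcodes, 5 of which they share.

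Counted over all LEC classes together, cycling LECs were more frequent on both Tie1/-2-deleted plates than on both of their control plates. A well was called cycling when at least 6 of the 18 S phase or 6 of the 17 G2/M members were detected after each well was thinned to 50000 counts, a depth that 2531 LEC wells reached. With 1 read taken as detection, the control plates Tie1fl/fl,Tie2fl/fl 1 and 2 held 12 of 313 (3.83%, 95% exact binomial interval 2.00 to 6.60) and 24 of 323 (7.43%, 4.82 to 10.9) cycling wells. The Tie1/-2-deleted plates held 27 of 340 (7.94%, 5.30 to 11.3) and 41 of 337 (12.2%, 8.87 to 16.1). The group means were 5.63% ± 2.54 and 10.1% ± 2.99 (SD, n = 2 plates each), and the groups did not overlap, although the lower deleted plate lay only just above the higher control. Intervals cover counting error only.

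A stricter count of the same wells kept the difference. With at least 3 reads per detected gene, a rule added after the data were seen because 2 other plates held many single-read detections, the control plates held 6 of 313 (1.92%, 0.707 to 4.13) and 6 of 323 (1.86%, 0.685 to 4.00). The Tie1/-2-deleted plates held 23 of 340 (6.76%, 4.34 to 9.98) and 20 of 337 (5.93%, 3.66 to 9.02). The means were 1.89% ± 0.04 and 6.35% ± 0.59 (SD, n = 2). These SDs are far smaller than the counting intervals of the single plates, so they do not show how far plates of a genotype differ. Single reads made up 51.3% and 58.2% of G2/M detections on these control plates and 24.6% and 42.0% on the deleted plates. On the 2 other plates they made up 50% and 59.2%. The rule thus set aside a larger share of these detections on the controls, and its part in the wider difference was not tested. In this strain, each layout of the plate tables (genes given as identifiers or as symbols) covers 1 control and 1 deleted plate. The shares were 1.92% and 6.76% in the first layout and 1.86% and 5.93% in the second. This order follows from groups that do not overlap, so it is no separate check on layout. With 2 plates against 2, an exact two-sided permutation test cannot give a p below 0.33, so the difference could not pass a test. With 1 read, the groups overlapped when 4 genes were required, when wells were thinned to 100000 counts, and when they were not thinned, and the mean difference was then below 0. Without thinning the shares were 24.4% and 57.1% in the controls and 9.09% and 36.6% in the deleted plates, whose wells had fewer detected genes within each table layout (medians of 4987 and 6373 against 3640.5 and 5846). The part of depth in either order was not tested. Thinning left out 12 to 23 LEC wells on each male plate and 53 and 42 on the female plates.

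The Tie1 strain showed no such order. With 1 read per gene, the Tie1fl/fl plates held 116 of 247 (47.0%, 40.6 to 53.4) and 16 of 335 (4.78%, 2.75 to 7.64) cycling wells, and the Tie1-deleted plates 167 of 303 (55.1%, 49.3 to 60.8) and 19 of 333 (5.71%, 3.47 to 8.77). With 3 reads the shares were 13.8% and 2.39% against 11.9% and 5.11%, with means of 8.08% ± 8.04 and 8.49% ± 4.79 (SD, n = 2). The groups overlapped under every setting tried. Of the 34 cycling wells of Tie1fl/fl plate 1, 4 lay in the *Tubb3*-led cluster, and without that cluster and the one led by *Gm10800* its share was 12.5%, while the Tie1/-2 shares became 1.96% and 1.58% in the controls and 6.63% and 6.01% in the deleted plates. The high plate of each pair is the one labelled female, and sex, table layout, and plate cannot be told apart there. Between the male plates alone the share was 2.39% in the control (8 of 335) and 5.11% in the deleted plate (17 of 333), and between the female plates it was 13.8% and 11.9%.

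**Figure D2:**
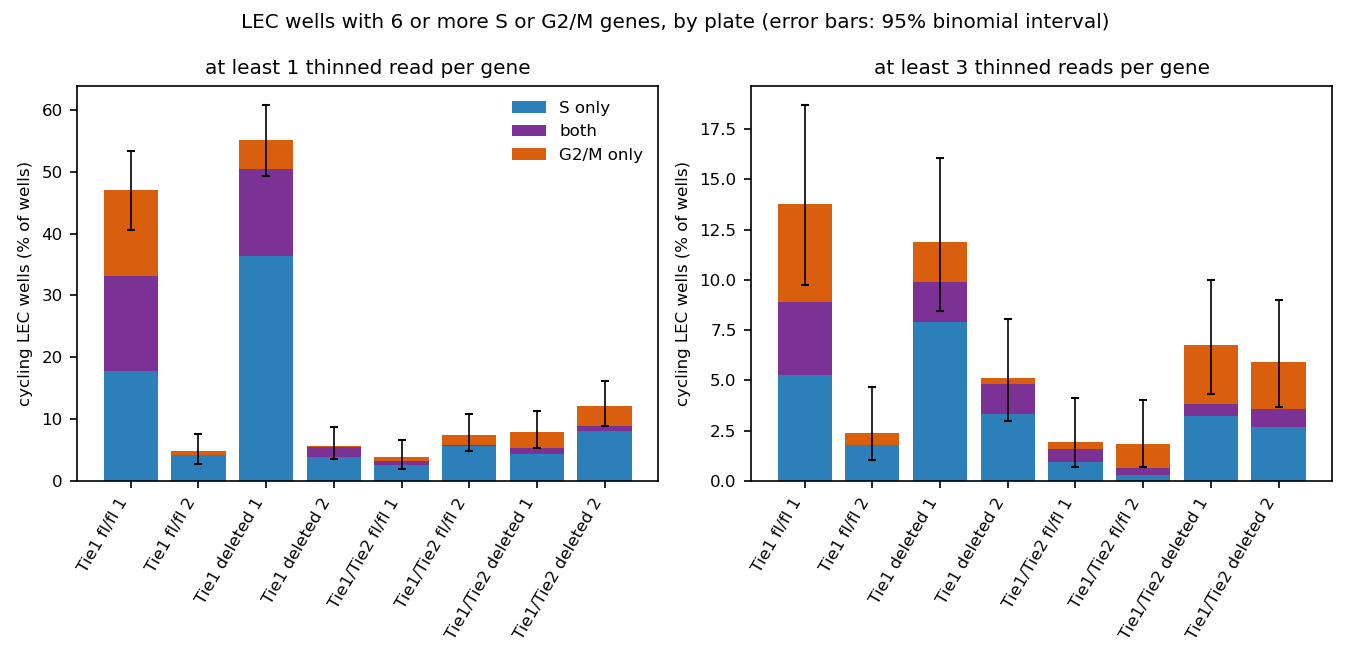
Share of LEC wells called cycling on each of the 8 plates (y axis, percent of wells with at least 50000 counts), split into wells that passed on S phase genes only, on both lists, or on G2/M genes only, with 1 (left) or 3 (right) reads per detected gene. Bars are single plates and error bars are 95% binomial intervals of the total. Both Tie1/-2-deleted plates lie above both controls in each panel, and the plates Tie1 fl/fl 1 and Tie1 deleted 1 stand apart at 47.0% and 55.1% on the left.

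The 2 female plates stood apart largely by low counts of many members, but also when 3 reads were required. Their wells held on average 4.57 and 3.27 of the 17 G2/M genes, against 0.579 to 1.07 on the other 6 plates, and 5.04 and 6.15 S phase genes against 2.12 to 2.93. *Mki67*, the classical proliferation marker, had at least 1 read in 30.8% and 28.1% of their wells and at least 3 reads in 11.3% and 9.57%, against 4.48% to 9.12% and 2.09% to 6.76% elsewhere. At least 12 genes of a list had 3 reads in 39 of their 550 wells, against 28 of 1981 elsewhere. The median number of detected genes per LEC well was 7292 and 7081, against 3640.5 to 6373 elsewhere. Of their 283 cycling wells, 213 were called only with 1 read. These 213 held a median of 805 CPM summed over 44 further G2/M genes that the call did not use, against 793 in the female wells that were not called. Wells of the same plates that were called with 3 reads held 4889 if called on G2/M genes only and 1391 if on S phase genes only. Over 30 further S phase genes the 213 held 400 CPM, against 436 in female wells not called. Female wells called on S phase genes only with 3 reads held 1785. The G2/M sum includes *Hjurp*, the most abundant of the 44 at the levels given below, so the comparison does not settle whether these calls are right. On the male plates the G2/M sums were 7225 for wells called on G2/M genes only with 3 reads and 622 for wells not called. The part of sex, layout, and depth in this was not tested.

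No member passed the test in any contrast of the summed plates. Tie1/-2 deletion changed 241 of 19877 genes (1.21%, edgeR, adjusted p at most 0.05), 62 higher and 179 lower, and Tie1 deletion changed 0 (0%), with 845 at an unadjusted p under 0.05 and 161 called by DESeq2. The difference between the deletions changed 29 genes (0.146%) and their average 201 (1.01%). Among the 35 members the counts were 0, 0, 0, and 0. At an unadjusted p under 0.05 they were 0 for Tie1 deletion (4.25% of all genes), 2 for Tie1/-2 deletion (*Uhrf1* and *Mcm6*, against 10.7% of all genes), 0 for the difference (7.46%), and 2 for the average (*Uhrf1* and *Cdt1*, against 9.81%). Both counts of 2 of 35 lie below the share over all genes. DESeq2 called *Uhrf1* for Tie1/-2 deletion and for the average, and no member for the other contrasts. On simulated counts for Tie1/-2 deletion over 19877 genes the same fit called 1 of 50 genes changed 2-fold and 25 of 50 changed 4-fold, so changes as small as 2-fold were mostly not detectable. In summed plates, fewer cycling cells and less RNA per cycling cell cannot be told apart.

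By direction, the members leaned upward with Tie1/-2 deletion. Of 35 members, 27 had a log2 fold change above 0, against 50.1% of all genes, with a median of 0.32 for the S phase list, 0.49 for the G2/M list, and 0.00 for all genes tested. Both deleted plates lay above both controls for 11 members, *Uhrf1* and *Ccne1* of S phase and *Birc5*, *Cenpa*, *Cenpf*, *Ccnb1*, *Ccnb2*, *Cdc20*, *Tpx2*, *Cdca8*, and *Bub1* of G2/M, against 16.7% of all genes. Both lay below for *Mcm6*, *Gins2*, and *Plk1*, against 20.6% of all genes. With Tie1 deletion 18 of 35 members were above 0, against 49.5% of all genes, with medians of 0.07 for S phase and -0.10 for G2/M. Both Tie1-deleted plates lay above both controls for *Mcm3*, *Uhrf1*, *Ccne1*, *Rrm1*, and *Cdt1*, all of S phase, against 15.5% of all genes, and below for *Pcna*, against 13.6%. Without Tie1fl/fl plate 1 the count above 0 was 32 of 35 with a G2/M median of 2.47, and without Tie1fl/fl plate 2 it was 10 of 35 with a median of -0.88. The direction in the Tie1 strain thus changed with the control plate that was left out. For the difference between the deletions 24 of 35 members were above 0, against 49% of all genes, and for the average 27 of 35, against 50.8%. The Tie1/-2 count moved between 21 and 29 as single plates were left out.

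Among the S phase genes, the helicase subunits *Mcm7* and *Mcm6* were the most abundant per length of transcript. They averaged 26.7 and 26.0 CPM per kb of exon over the 8 plates, the clamp *Pcna* 23.7, and *Mcm3* 23.4, whereas *Hells* was at 0.734 and *Ccne1* at 0.979. *Mcm6* was at 135 and 148 CPM in Tie1fl/fl, 165 and 137 in Tie1-deleted, 143 and 94.5 in Tie1fl/fl,Tie2fl/fl, and 80.2 and 67.3 in Tie1/-2-deleted plates. It was the most abundant member that lay lower in both Tie1/-2-deleted plates than in both controls (log2 fold change -0.69 ± 0.27 (SE), edgeR adjusted p = 0.404). *Mcm7* was at 142 and 114, 167 and 97.9, 90.0 and 108, and 140 and 87.7 CPM in the same order, with overlapping groups in both strains (log2 fold changes 0.05 ± 0.34 and 0.20 ± 0.34).

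*Mcm3* was at 58.1 and 89.4 CPM in Tie1fl/fl and 128 and 117 in Tie1-deleted plates, and at 96.9 and 65.4 and 94.3 and 54.8 in the other strain. It was higher in both Tie1-deleted plates (log2 fold change 0.73 ± 0.35, edgeR adjusted p = 1) and overlapped in the Tie1/-2 strain (-0.12 ± 0.35). *Mcm2* was at 75.5 and 71.5, 99.2 and 47.5, 29.8 and 49.5, and 83.7 and 40.6 CPM in the same order of groups, and *Rrm1*, the large subunit of ribonucleotide reductase, at 58.8 and 66.5, 87.3 and 71.3, 59.1 and 47.4, and 81.7 and 45.7. Both overlapped in the Tie1/-2 strain (log2 fold changes 0.65 ± 0.46 and 0.26 ± 0.32).

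*Uhrf1*, which recruits the maintenance DNA methyltransferase to newly copied DNA, had the highest fold change of the S phase list in both strains. It was at 17.7 and 4.14 CPM in Tie1fl/fl and 50.1 and 29.4 in Tie1-deleted plates, and at 4.35 and 0.97 in Tie1fl/fl,Tie2fl/fl and 27.9 and 8.76 in Tie1/-2-deleted plates. Both deleted plates exceeded both controls in each strain (log2 fold changes 1.86 ± 0.93 and 2.79 ± 0.96, edgeR adjusted p = 1 and 0.337). Its average over both deletions was 2.32 ± 0.67 (edgeR adjusted p = 0.243), and the call depended on the filter and the tool. *Gins2*, a subunit of the replication helicase complex, had the lowest fold change of the list. It was at 53.6 and 14.5, 39.9 and 14.3, 13 and 14.6, and 4.24 and 7.37 CPM in the order given (log2 fold changes -0.33 ± 0.69 and -1.24 ± 0.70).

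All 17 G2/M members were higher on Tie1fl/fl plate 1, labelled female, than on Tie1fl/fl plate 2. *Cdc20*, the anaphase activator and at 23.9 CPM per kb the most abundant of the list, was at 91.6 and 50.6 CPM in Tie1fl/fl, 58.6 and 40.7 in Tie1-deleted, 10.9 and 26.0 in Tie1fl/fl,Tie2fl/fl, and 52.4 and 26.3 in Tie1/-2-deleted plates. Its Tie1/-2 groups touched without overlapping (log2 fold change 1.09 ± 0.53, edgeR adjusted p = 0.528). *Ccnb2*, a B-type cyclin, was at 62.1 and 18, 38.0 and 34.7, 15.1 and 20.8, and 47.8 and 27.4 CPM in the same order, and both Tie1/-2-deleted plates were above both controls (1.06 ± 0.56). *Mki67* was at 62.0 and 14.2, 54.5 and 35.7, 14.8 and 21.3, and 43.6 and 16.7 CPM, with groups that overlapped in both strains (0.24 ± 0.69 and 0.74 ± 0.69).

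*Top2a*, the topoisomerase that untangles sister chromatids, showed a wide split between plates of 1 genotype. It was at 69.8 and 2.86 CPM in Tie1fl/fl, 33.2 and 38.1 in Tie1-deleted, 12.8 and 8.97 in Tie1fl/fl,Tie2fl/fl, and 13.1 and 10.7 in Tie1/-2-deleted plates. Its log2 fold changes were -0.03 ± 1.03 and 0.13 ± 1.03, so neither direction could be read. *Cenpa*, the centromeric histone, was at 57.8 and 20.4, 49.6 and 29.7, 23.2 and 20.4, and 30.0 and 27.8 CPM in the same order (0.02 ± 0.49 and 0.41 ± 0.49), and *Aurkb*, the kinase of the chromosomal passenger complex, at 43.7 and 0.818, 25.5 and 23.7, 9.26 and 6.29, and 8.21 and 1.34 (0.14 ± 1.35 and -0.71 ± 1.36).

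The spindle assembly factor *Tpx2* and the checkpoint kinase *Bub1* had the highest G2/M fold changes, in the Tie1 and in the Tie1/-2 strain respectively. *Tpx2* was at 30.5 and 4.53 CPM in Tie1fl/fl, 38.9 and 26.0 in Tie1-deleted, 3.84 and 6.57 in Tie1fl/fl,Tie2fl/fl, and 14.8 and 14.7 in Tie1/-2-deleted plates. The last 2 groups did not overlap (log2 fold change 1.5 ± 0.77, edgeR adjusted p = 0.562). *Bub1* was at 8.12 and 2.79, 3.35 and 1.55, 0.0252 and 0.795, and 3.77 and 2.72 CPM. It was lower in Tie1-deleted plates on average, with overlap (-1.16 ± 1.26), and higher in both Tie1/-2-deleted plates than in both controls (2.97 ± 1.35, edgeR adjusted p = 0.493). The plot of member levels by plate shows how single plates carry these means.

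**Figure D3:**
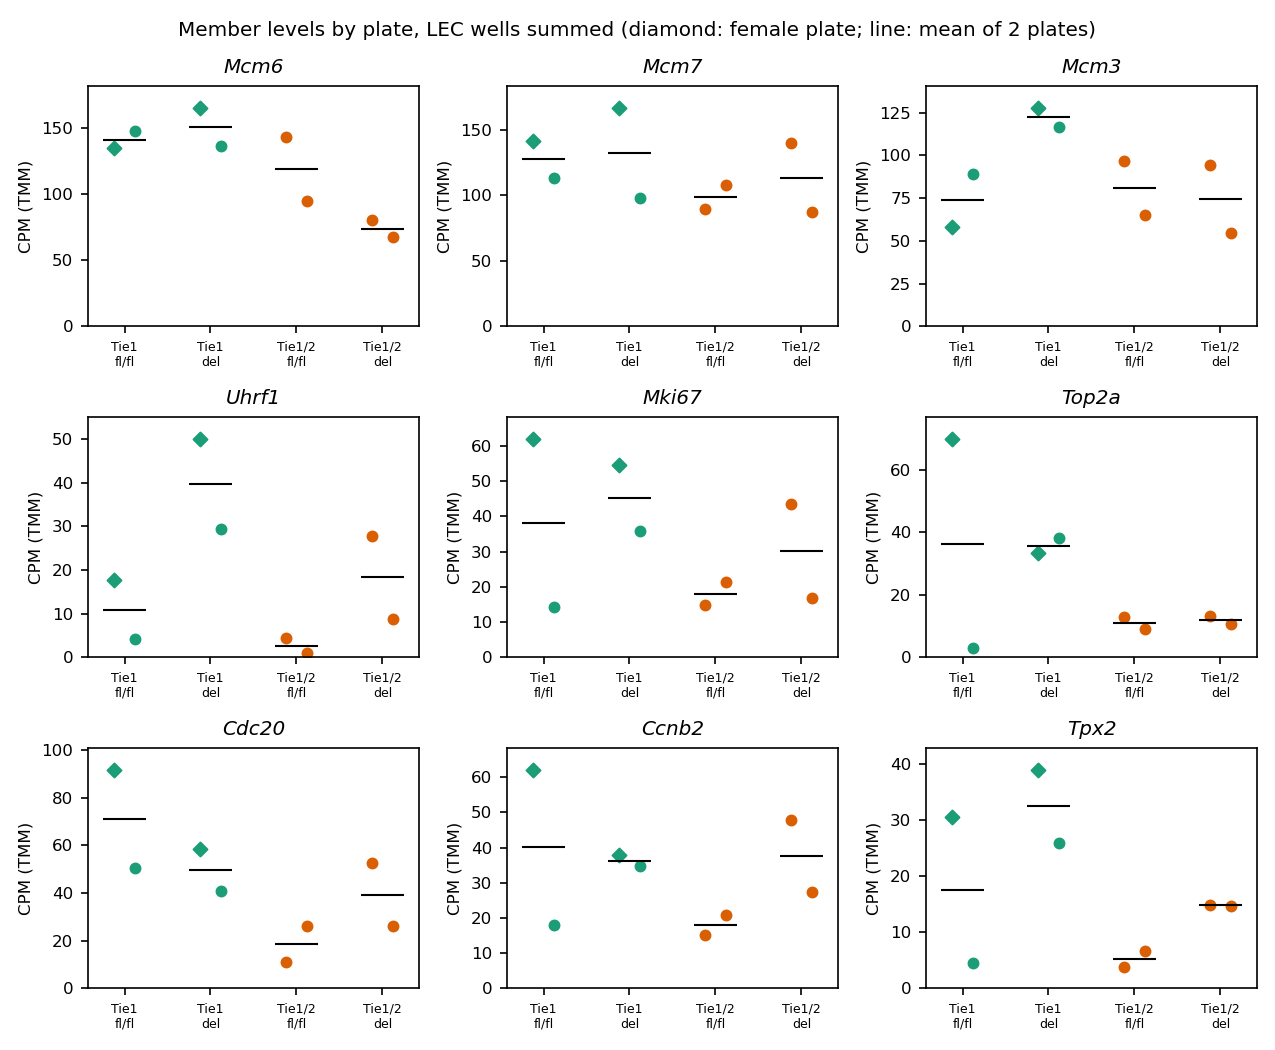
Levels of 9 members in the summed LEC wells of each plate (y axis, TMM-scaled CPM, linear from 0). Each point is 1 plate, diamonds are the female plates, and lines are means of 2 plates. *Uhrf1* and *Tpx2* are higher in both Tie1/2-deleted plates than in both controls, *Mcm6* is lower, and *Top2a* in Tie1 fl/fl runs from 2.86 to 69.8.

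The ratio of S phase to G2/M transcripts was lower on both Tie1/-2-deleted plates than on both controls. Summed CPM of the G2/M list was 154 and 182 in Tie1fl/fl,Tie2fl/fl and 286 and 215 in Tie1/-2-deleted plates, which did not overlap, and that of the S phase list was 653 and 605 and 762 and 557, which did. The log2 ratio of the S phase sum to the G2/M sum was 2.09 and 1.74 in the controls and 1.41 and 1.37 in the deleted plates, with means of 1.91 ± 0.25 and 1.39 ± 0.03 (SD, n = 2). In the Tie1 strain the ratio was 0.17 and 2.28 in the controls and 1.12 and 1.16 in the deleted plates. A median of 41.0% of the counts of an S phase member and 84.6% of those of a G2/M member lay in wells called cycling. The ratio thus also depends on the share of cycling wells, and that part was not tested. Counted in wells with 3 reads, G2/M-only wells numbered 1 and 4 on the Tie1/-2 control plates and 10 and 8 on the deleted plates, and S-only wells 3 and 1 against 11 and 9. Wells of each phase were more numerous on both deleted plates, and the S-only share of cycling wells was 50% and 16.7% against 47.8% and 45.0%. With 1 read this share was 66.7% and 75% against 55.6% and 65.9%, so the direction of the means changed with the rule. With so few wells a difference in this share was not detectable.

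The members' transcripts were concentrated in cycling cells to a different degree in the 2 phases. Of the counts of a G2/M member in the LEC wells, a median of 84.6% lay in the 150 wells called cycling with 3 reads, from 51.2% for *Cenpa* to 94.5% for *Bub1*, although those wells held 7.15% of all counts. For S phase members the median was 41.0%, from 19.7% for *Pcna* to 94.7% for *Cdc6*. *Mki67* averaged 371 CPM in cycling wells and 6.58 in all other wells. In the 10x LECs the medians were 94.3% for G2/M and 67.6% for S phase members in 111 of 1637 cells, with the same members at the ends of each range. These genes also made the calls, so the shares are a description. Likewise across LEC wells of the 6 male plates, log levels correlated with a median r of 0.46 between G2/M members, 0.14 between S phase members, and 0.09 between the phases (2080 wells that share depth and plate). In the 1831 10x LECs the medians were 0.64, 0.37, and 0.22. Of genes outside all lists, *Pimreg* (r = 0.68 with the members' mean in wells and 0.68 in 10x LECs), *Pclaf* (0.59 and 0.83), *Asf1b* (0.63 and 0.59), *Kif15* (0.59 and 0.72), and *Iqgap3* (0.55 and 0.67) followed the members most closely.

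Other cell cycle genes were listed by role and by no rule on their change, also with earlier results known. No gene of any of these lists passed the test in the Tie1 or the Tie1/-2 contrast (edgeR). Of 44 further G2/M genes tested, 32 had a log2 fold change above 0 with Tie1/-2 deletion (median 0.63), 19 were higher and 5 lower in both deleted plates than in both controls (16.7% and 20.6% of all genes), and 4 had an unadjusted p under 0.05, no more than the 10.7% of all genes. With Tie1 deletion 10 of 44 were above 0 (median -0.38). Of 30 further S phase genes, 16 were above 0 with Tie1/-2 deletion (median 0.04) and 20 with Tie1 deletion (median 0.19). The most abundant further S phase gene, *Rfc2*, a clamp loader subunit, was at 102 and 114, 104 and 76.7, 77.6 and 87.3, and 79.2 and 85.3 CPM and overlapped in both strains.

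The most abundant further G2/M gene, *Hjurp*, was lower in both deleted plates of each strain, which in the Tie1/-2 strain goes against the median of its list. This chaperone of the centromeric histone was at 623 and 545 CPM in Tie1fl/fl, 407 and 447 in Tie1-deleted, 597 and 499 in Tie1fl/fl,Tie2fl/fl, and 274 and 274 in Tie1/-2-deleted plates (log2 fold changes -0.45 and -0.999 ± 0.19, edgeR adjusted p = 1 and 0.0558). With DESeq2 the adjusted p for Tie1/-2 deletion was 0.000318, and without the filter on low counts it was 0.0195 in edgeR.

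Regulators of G1 and of the E2F pathway pointed in both directions. Above 0 with Tie1/-2 deletion were 5 of 9 E2F and pocket protein genes, 2 of 6 DREAM and MuvB genes, 4 of 6 G1 cyclins and kinases, 4 of 6 CDK inhibitors, and 2 of 5 checkpoint and entry kinases. In that order, both deleted plates lay above both controls for 3, 0, 2, 2, and 0 genes (16.7% of all genes). They lay below for 3, 3, 1, 1, and 1 (20.6%). *E2f1*, *Ccnd2*, and *Rb1* below are all among the higher ones. *Cdk4*, the kinase that phosphorylates the retinoblastoma protein with D cyclins, was at 483 and 464, 480 and 471, 390 and 359, and 554 and 506 CPM, higher in both Tie1/-2-deleted plates than in both controls (log2 fold change 0.50 ± 0.17, edgeR adjusted p = 0.337), with a log2 fold change of 0.01 in the Tie1 strain. *Tfdp1*, the partner of E2F factors (0.34 ± 0.37), *Lin37* of the DREAM complex (-0.05 ± 0.40), the CDK inhibitor *Cdkn1a* (-0.06 ± 0.57), and *Fzr1*, an activator of the anaphase-promoting complex (-0.51 ± 0.41), overlapped between the Tie1/-2 groups. Chosen after their values were seen, *E2f1* was at 1.40 and 0.361 CPM in the Tie1/-2 controls and 10.5 and 6.34 in the deleted plates (3.26 ± 0.87, edgeR adjusted p = 0.189), *Ccnd2*, a D-type cyclin, at 127 and 151 and at 252 and 318 (1.04 ± 0.26, adjusted p = 0.156), and *Rb1*, the retinoblastoma gene, at 19.5 and 14.8 and at 49.3 and 49.2 (1.52 ± 0.37, adjusted p = 0.141). For *E2f1* the call depended on the tool and the filter (adjusted p = 0.000971 with DESeq2 and 0.0171 in edgeR without the filter on low counts).

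Cycling wells were spread unequally over the classes of LECs. Classes were found by clustering without the members and the genes that follow them, and named from markers, so that cycling cells could fall in the class of their other genes. Even so, 106 of 150 cycling wells (3 reads) lay in LEC clusters that no marker list named. The shares of the named classes leave these wells out. With 3 reads, the share averaged 3.82% ± 4.14 over the 8 plates in capillary-like LECs (27 of 681 wells), 1.59% ± 3.46 in collector-like LECs (5 of 329), and 1.21% ± 1.40 in valve-like LECs (5 of 394). The capillary-like share was above the collector-like share on 7 of 8 plates and equal to it on 1, with a mean difference of 2.23 ± 1.46 percentage points (SD, n = 8 plates). It was above the valve-like share on 7 of 8 plates (2.61 ± 3.61). On the 6 male plates 0 of 254 collector-like wells were cycling, which allows a share of up to 1.18%, against 9 of 504 capillary-like wells (1.71% ± 1.01). No male plate held more than 2 cycling capillary-like wells, so the order by plate rests on few wells there. These levels depended on the resolution of the clustering. At resolution 2.0 the male plates held 2 of 242 collector-like (mean 1.80%) and 9 of 276 capillary-like (3.29%) cycling wells, and at 0.5 they held 1 of 234 (1.19%) and 68 of 1259 (5.21%). Over all 8 plates the capillary-like mean was 4.6% at 2.0 and 8.45% at 0.5, and it was above the collector-like mean (2.98% and 2.25%) in both. With the cell cycle genes kept in the clustering no cluster met the capillary markers. LECs led by interferon response genes held 7 of 86.

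At the resolution used, 106 of the 150 cycling wells lay in LEC clusters that no marker list named, and at 0.5 10 did, with 127 in the capillary-like class. The cluster led by *Oxct1*, *Kcnj8*, and *Mest* held 62 cycling wells of 310 (20.0%, 15.7 to 24.9), and that led by *Fosb* and *Atf3*, immediate early genes, 15 of 132 (11.4%). The member *Cdc20* was among the leading genes of the latter. In the former, the Tie1/-2 control plates held 5 of 18 and 1 of 25 cycling wells and the deleted plates 13 of 79 and 9 of 73, which overlapped. The deleted plates thus also held more wells of the cluster with the most cycling wells. Outside that cluster, a comparison added after the data were seen, the share with 3 reads was 0.339% and 1.68% in the controls and 3.83% and 4.17% in the deleted plates. With 1 read it was 2.37% and 7.05% against 4.21% and 10.6%, which overlapped. With 3 reads, capillary-like LECs held 1 of 90 and 2 of 94 in the controls against 0 of 58 and 2 of 72. Valve-like LECs held 0 of 47 and 0 of 51 against 2 of 67 and 0 of 46. Interferon-led LECs held 0 of 9 and 0 of 8 against 2 of 12 and 2 of 20. Collector-like LECs held 0 of 63 and 0 of 61 against 0 of 14 and 0 of 16, and were fewer on the deleted plates. All unnamed clusters held 5 of 104 and 4 of 109 against 19 of 189 and 16 of 183. The part of class sizes was not tested.

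The 10x libraries go against their labels in sex. Both are labelled male, and both held cells with *Xist*, which is expressed from the inactive X chromosome, and cells with Y-linked transcripts. Of the LECs, 52.0% had *Xist* alone and 34.7% a Y-linked transcript alone in the IgG library, and 35.1% and 50.2% in the Ang2 Ab library. The title of the Ang2 Ab library also calls it a control, and its treatment label was followed. With 1 library per treatment there is no test. The cycling shares of all LECs and of all blood endothelial cells, and the levels by member list, are also given by kind of cell. The kinds are cells with *Xist* alone and cells with a Y-linked transcript alone. Other 10x values, such as those of single genes, classes, and phase ratios, are not split in this way.

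A smaller share of LECs was cycling in the Ang2 Ab library. With at least 6 genes of a list detected at 5000 UMIs per cell, 83 of 1075 LECs (7.72%, 6.20 to 9.48) were cycling with IgG and 28 of 562 (4.98%, 3.34 to 7.12) with Ang2 Ab, a difference of -2.74 percentage points (95% interval -5.15 to -0.113). These and the other intervals of this comparison cover counting error only and leave out the spread between mice or libraries. They also make no allowance for the different mix of cells with *Xist* or Y-linked transcripts in the libraries. The median UMI count of LECs was 12177 and 11702.5, and 1075 of 1195 and 562 of 636 cells were deep enough to be thinned. Without thinning the shares were 12.9% and 9.12%. In cells with *Xist* alone the share was 6.74% (39 of 579) with IgG and 5.16% (11 of 213) with Ang2 Ab. In cells with a Y-linked transcript alone it was 9.21% (36 of 391) and 4.03% (12 of 298). The direction was the same in both kinds of cell, and most of the difference lay in the latter. Of cycling LECs, 47.0% were S only with IgG and 46.4% with Ang2 Ab, a difference of -0.559 points with an interval from -22.6 to 22.

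All 35 members were lower in LECs of the Ang2 Ab library when the counts were summed. The ratio of Ang2 Ab to IgG CPM was below 1 for 35 of 35 members, against 50.7% of 10502 genes with at least 100 UMIs. Its median was 0.742 for S phase and 0.622 for G2/M members, against 0.997 for all genes. The 95% interval of the ratio, which covers counting error only, lay below 1 for 15 of 18 S phase and 16 of 17 G2/M members, against 18.4% of all genes, and above 1 for none, against 18.2%. Of the UMIs of a G2/M member, a median of 94.3% lay in the 111 LECs called cycling. The members also varied together (median r of 0.64 between G2/M members). They are thus not independent of each other, and the intervals leave out the spread between cells. At least 2-fold lower were *Ccne2* (0.489) and *Prc1* (0.464), against 1.16% of all genes, and none was 2-fold higher, against 1.29%.

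The S phase members with the most UMIs had ratios from 0.659 (*Lig1*) to 0.780 (*Pcna*). *Pcna* was at 123 CPM with IgG and 96.3 with Ang2 Ab, *Tyms*, thymidylate synthase, at 59.4 and 42.1, and *Mcm7* at 53.6 and 41.0. *Lig1*, the ligase that joins Okazaki fragments and whose promoter is printed above, was at 52.2 and 34.4, and *Rrm1* at 45.8 and 33.8. *Uhrf1* had the highest ratio of the list (0.866, 0.688 to 1.08), and *Ccne2*, an E-type cyclin, the lowest. Of the G2/M members, *Top2a* was at 88.2 and 48.9 CPM, *Mki67* at 78.3 and 48.0, *Cenpf*, a kinetochore protein, at 73.6 and 46.6, *Prc1*, which bundles the microtubules of the midzone, at 49.2 and 22.8, and *Birc5*, survivin, at 40.3 and 25.8. *Cenpa* had the highest ratio of the list (0.839, 0.726 to 0.968).

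The G2/M members gave different ratios in the 2 kinds of cell, a difference that was not tested. In LECs with a Y-linked transcript alone, the ratio was below 1 for 18 of 18 S phase members (median 0.595) and 17 of 17 G2/M members (median 0.446), and the G2/M sum was 607 CPM with IgG and 267 with Ang2 Ab. Members under 100 UMIs are included in these counts. In LECs with *Xist* alone, 17 of 18 S phase members were lower (median 0.719), but only 8 of 17 G2/M members were (median 1.18), and the G2/M sum was 560 and 549. The S phase sum was lower in both kinds of cell, at 689 and 424 CPM in the former and 560 and 427 in the latter. Among LECs called cycling, the Ang2 Ab to IgG ratio of the summed list was 0.880 for S phase and 0.887 for G2/M. Among LECs called neither it was 0.872 for S phase and 0.970 for G2/M.

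Further G2/M genes with at least 100 UMIs were lower in 40 of 40 cases in the Ang2 Ab LECs (median ratio 0.613), and further S phase genes in 24 of 26 (0.778), against 50.7% of all genes. LECs called on G2/M genes only held a median of 10178 CPM over the further G2/M genes, against 547 in LECs called neither. These genes are thus not independent of the members or of each other, and their ratios were not split by kind of cell. *Ccnd1*, a D-type cyclin, had a ratio of 0.715, *Cdk4* of 0.901, and *Cdkn1a* of 0.689. *Cdkn2c*, a CDK inhibitor, was at 0.449, and *Ccnd2* (1.13) and *Cdkn1b* (1.03) were not lower. Of 5 DREAM and MuvB genes with enough UMIs no interval lay below 1 (median 0.980).

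A smaller share of blood endothelial cells than of LECs was called cycling in both libraries, with intervals that did not overlap. With IgG 16 of 988 (1.62%, 0.928 to 2.62) and with Ang2 Ab 19 of 997 (1.91%, 1.15 to 2.96) were cycling, against 7.72% and 4.98% of LECs. Cells were thinned to the same 5000 UMIs, which removed more blood endothelial cells, whose median UMI counts were 8055 and 6755 and of which 988 of 1433 and 997 of 1570 remained. Without thinning their shares were 3.28% with IgG and 2.68% with Ang2 Ab. The difference between the libraries was 0.286 points (-0.964 to 1.55). The intervals of the shares and of this difference again cover counting error only. In cells with *Xist* alone the share was 0.891% with IgG (5 of 561) and 2.52% with Ang2 Ab (10 of 397), and in cells with a Y-linked transcript alone 2.41% (7 of 291) and 1.5% (7 of 468), so the direction differed between the kinds of cell. Of mural cells 3 of 352 were called, and of cells with fibroblast markers 2 of 240, of which 175 lay in a cluster led by cartilage genes such as *Col2a1* and *Acan*.

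Most members measured in blood endothelial cells were also lower in the Ang2 Ab library. Of 26 members with at least 100 UMIs, 13 of 14 S phase members (median ratio 0.854) and 10 of 12 G2/M members (0.627) were below 1, against 46.2% of 10518 genes. The interval lay below 1 for 4 S phase and 9 G2/M members, against 15% of all genes, and above 1 for 1 member (*Cenpf*), against 17.6%. Here too the intervals leave out the spread between cells, and the members are not independent. *Ube2c*, an E2 of the anaphase-promoting complex, was the lowest (12 CPM with IgG and 3.09 with Ang2 Ab, ratio 0.257), followed by *Cdk1* (0.458), *Prc1* (0.462), and *Cdca8* (0.484), against 0.561% of genes that were at least 2-fold lower. None was 2-fold higher, against 0.257% of genes. *Cenpf* was higher (7.91 and 10.4 CPM, ratio 1.31, 1.01 to 1.72). These directions did not hold within both kinds of cell. The G2/M sum was 50.4 CPM with IgG and 137 with Ang2 Ab in cells with *Xist* alone (364 and 650 UMIs over 17 genes), and 346 and 79.4 in cells with a Y-linked transcript alone (1377 and 460 UMIs). Of the members with at least 100 UMIs there, 0 of 3 and 9 of 9 were lower.

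Across the endothelial classes, capillary-like LECs held the largest shares of cycling cells among the named classes. They were 35 of 379 (9.23%) with IgG and 14 of 225 (6.22%) with Ang2 Ab. In collector-like LECs the counts were 15 of 221 (6.79%, 3.85 to 10.9) and 1 of 73 (1.37%, 0.0347 to 7.40), whose intervals overlap. Valve-like LECs held 1 of 90 and 1 of 63. The unnamed LEC cluster led by *Atf3*, *Egr3*, and *Fos* held 32 of 376 (8.51%) and 12 of 195 (6.15%). An unnamed cluster led by *Fibin*, which was left out of the LECs, held 0 of 278, which allows a share of up to 1.08%. Its leading genes include *Gdf10* of the valve marker list and *Cldn11*, a valve gene in the study. With this cluster included, 6.72% of LECs were cycling with IgG (83 of 1235) and 4.12% with Ang2 Ab (28 of 680). Among blood endothelial cells, the capillary-like class held 7 of 439 and 10 of 429, the arterial-like class 1 of 118 and 1 of 143, and the venous-like class 2 of 226 and 1 of 180. The unnamed blood endothelial cluster led by *Pgf*, *Kit*, *Prnd*, and *Apln* held 5 of 82 and 7 of 160, or 4.96% together. *Apln* is known as a marker of endothelial tip cells.

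**Figure D4:**
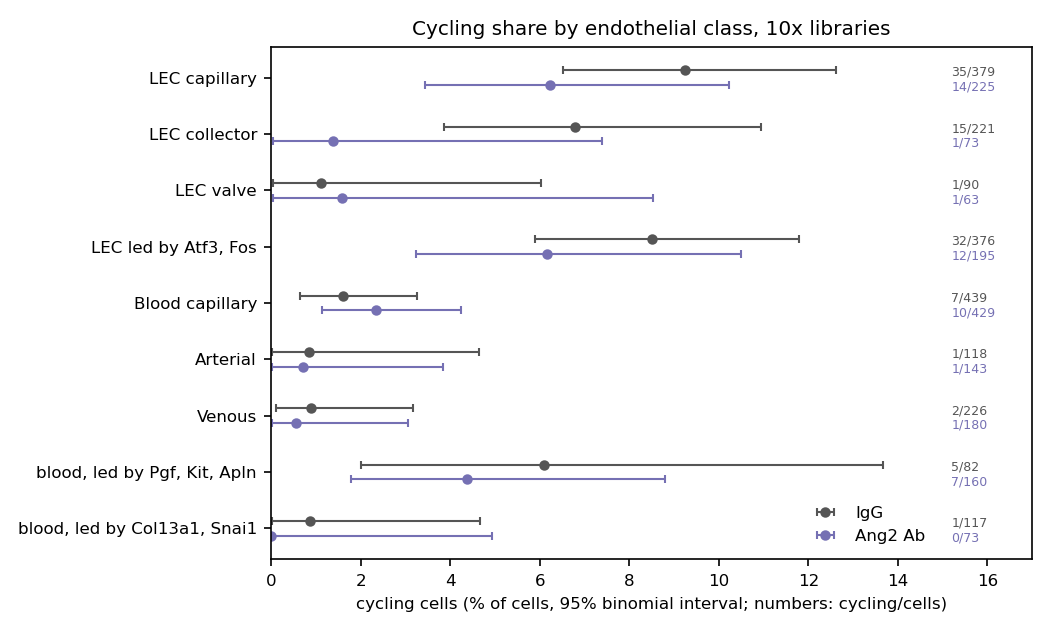
Share of cycling cells (x axis, percent of cells with at least 5000 UMIs) by endothelial class in the IgG (grey) and Ang2 Ab (purple) 10x libraries. Points are single libraries, bars are 95% binomial intervals, and the numbers give cycling and all cells. The capillary-like and collector-like LECs lie lower with Ang2 Ab, with overlapping intervals, and most blood endothelial classes lie below 3%.

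Side by side, the members' values were mostly above the control with Tie1/-2 deletion and below it with Ang2 Ab. Tie1/-2 deletion left 27 of 35 above 0 on the log2 scale, Tie1 deletion 18 of 35, and Ang2 Ab in LECs 0 of 35. The last count pools all LECs. In LECs with *Xist* alone, 17 of 18 S phase but only 8 of 17 G2/M members were lower with Ang2 Ab. In LECs with a Y-linked transcript alone, 18 of 18 and 17 of 17 were lower. The count for Tie1 deletion was 27 of 35 with the replicate number, which in that strain coincides with sex and table layout, as a block, and 26 of 35 without both female plates, so a contrast between the deletions in this count is not established. For *Mki67* the log2 values were 0.74 ± 0.69, 0.24 ± 0.69, and a CPM ratio of 0.613, and for *Uhrf1* 2.79 ± 0.96, 1.86 ± 0.93, and a ratio of 0.866. The plates and the 10x libraries differ in age, sort, sex, and chemistry, so no test was made between them. Summed over all 10x LECs the phases were near even, with log2 ratios of the S phase to the G2/M sum of 0.03 with IgG (605 and 591 CPM) and 0.26 with Ang2 Ab (440 and 369). In blood endothelial cells they were 1.17 (329 and 146) and 1.5 (288 and 101). With IgG, the S phase and G2/M sums were 2827 and 4346 CPM in LECs called cycling. In LECs called neither they were 288 and 51.1. The summed ratios thus also depend on the share of cycling cells, and that part was not tested.

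**Figure D5:**
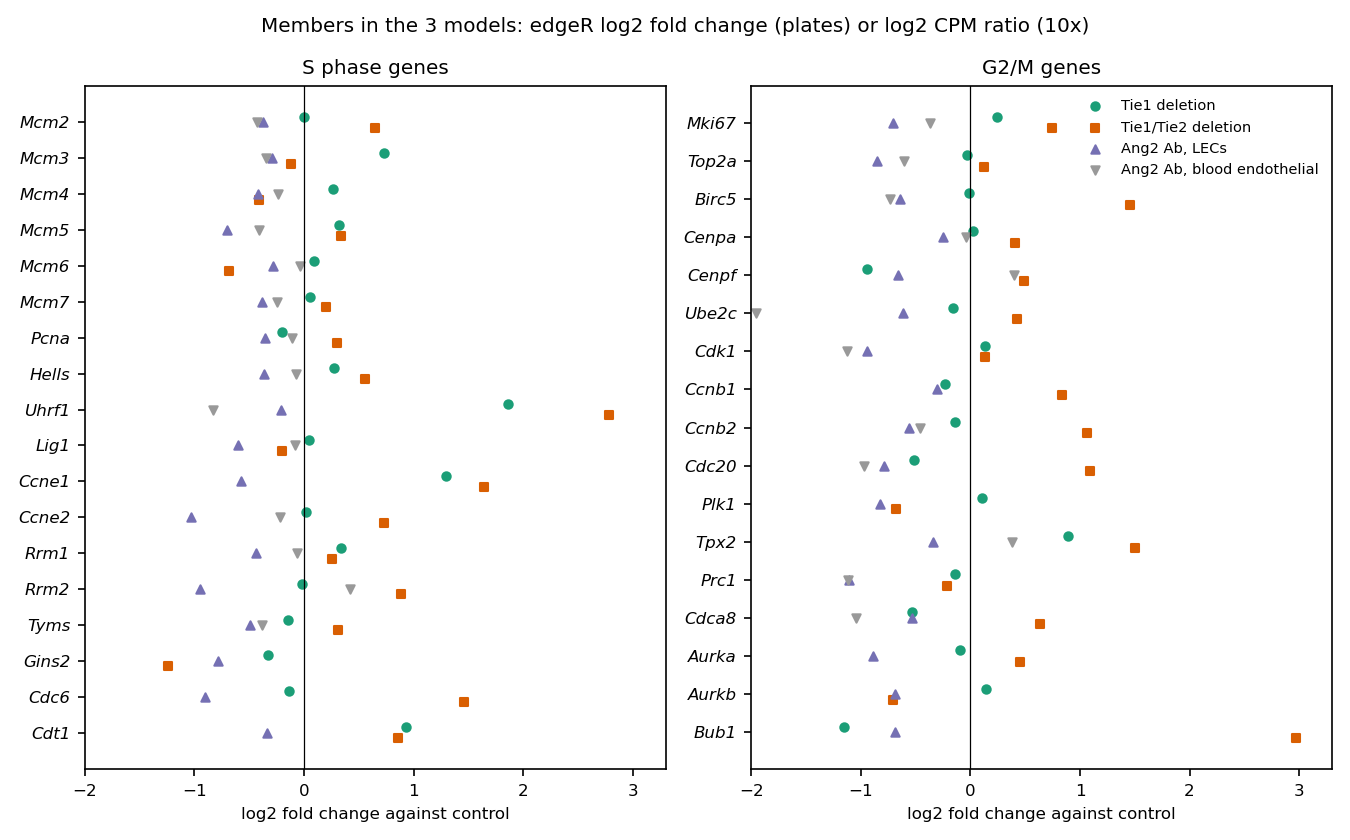
Change of each S phase (left) and G2/M (right) member against its control (x axis, log2) in Tie1 deletion (circles) and Tie1/-2 deletion (squares), from edgeR on 2 plates per group, and with Ang2 Ab in LECs (triangles) and blood endothelial cells (inverted triangles, members with at least 100 UMIs), from 1 library each. All 35 Ang2 Ab points of LECs, which pool cells with *Xist* and cells with Y-linked transcripts, lie below 0. Of the 35 Tie1/-2 points 27 lie above it. No member passed the edgeR test.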

How the data were processed

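The authors deposited counts in both experiments, read counts per gene and well for the plates and UMI counts per gene and barcode for the 10x libraries, without normalization. The submitters' processing notes name TopHat2 2.1.1, SAMtools 0.1.18, and featureCounts for reads on GRCm38/mm10, and Cell Ranger 2.1.1. Plate tables of both layouts were joined on 42558 genes, which held 95.8% to 97.1% of the counts.

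Filters required 1000 genes per well, and 500 genes with no more than 10% of UMIs from mitochondria per 10x cell. Clustering was done with scanpy 1.11.5 and the Leiden method of igraph (2000 variable genes, 30 components, 15 neighbors, resolution 1.0). It left out the members, further cell cycle genes, sex-linked genes, and 12 genes named by the study. It also left out 414 (plates) or 474 (10x) genes whose levels correlated over 0.15 with the members. A cluster was named when at least 3 markers were raised 1.5-fold and detected in 10% of its cells. Plate wells in clusters with markers of another cell type were removed and all others kept as LECs. Resolutions 2.0 and 0.5 and clustering with the cell cycle genes were alternatives. Scrublet marked 0.669% and 0.0337% of the 10x cells and so had not worked, and removal of the top 5% of scores was an alternative. Doublets on the plates were not called.

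Summed LEC counts were tested by the quasi-likelihood method of edgeR 4.0.16 after TMM scaling and filterByExpr (19877 genes, all 8 plates, Benjamini-Hochberg over all genes, threshold 0.05) in R 4.3.3, and checked on simulated data. DESeq2 1.42.0 was an alternative. Thinning used 1 seed, and binomial intervals are Clopper-Pearson at 95%. The shares that a count of 0 allows are instead 3 divided by the number of wells or cells, an approximate one-sided limit. For the *Fibin* cluster the Clopper-Pearson upper limit was 1.32%. Other tools were Python 3.11.15, numpy 2.4.6, pandas 2.3.3, and scipy 1.17.1.

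The members and lists were chosen with earlier results of these data known. Named are the 5 members of each phase with the highest CPM, those called, those with the highest and lowest fold change per strain, and the most abundant gene of each further list. In the 10x libraries they are the 5 of each phase with the most LEC UMIs and those with the highest and lowest ratio. The 3-read rule, the split by sex-linked transcripts, the comparisons without the female plates, and those without the *Oxct1*, *Tubb3*, and *Gm10800* clusters were chosen after seeing the data.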

Additional observations from a re-analysis of the deposited data

Results flagged for a closer look

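*Cenpf*, a kinetochore gene of the G2/M list, went opposite ways in the 2 kinds of endothelial cell. Its Ang2 Ab to IgG ratio of CPM was 0.633 in LECs and 1.31 in blood endothelial cells, with counting intervals on either side of 1. With 1 library per treatment the difference was not tested against replicates. In blood endothelial cells the summed G2/M members were higher with Ang2 Ab among cells with *Xist* alone and lower among cells with a Y-linked transcript alone, and the part of this mixture in the result was not tested.

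Keratinocytes, which the sort on CD31 does not aim at and which enter no comparison, held the largest share of cycling cells of the named cell types with over 50 cells at this depth, 7 of 54 (13%) over both 10x libraries. They were 4 of 32 with IgG and 3 of 22 with Ang2 Ab.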

How the results depend on the processing

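Of the results that answer a comparison, 143 of 176 values under alternatives other than single plates left out stayed within the spread or within 1.5 times. Counts that stayed at 0 are among these values, and a result with a wide spread, such as the Tie1 cycling share, could hardly leave it. The tally is thus no measure of how firm the results are. Genes called moved most with the filter and the tool. Without the filter on low counts 252 were called for Tie1 deletion, 1212 for Tie1/-2 deletion, 615 for the difference, and 1076 for the average, and DESeq2 called 161, 1040, 453, and 890. For the difference the count was 15 with the table layout as a term, 17 with no cluster removed, and 4 without both female plates, which left 38 for the average. Members called were 1 for Tie1/-2 deletion (*Uhrf1*) without the filter and with DESeq2, and for the average 2 without the filter (*Uhrf1* and *Tpx2*) and 1 with DESeq2. Leaving out 1 plate at a time gave 93 to 224 genes for Tie1/-2 deletion, 4 to 17 for the difference, 46 to 157 for the average, and 0 for Tie1 deletion, with 0 to 1 members for the average (*Aurka*, without Tie1fl/fl plate 1). With 1 read, the difference in cycling share ran from 2.31 to 6.53 points for Tie1/-2 deletion and from -20.2 to 29.2 for Tie1 deletion. That in the S-only share, also with 1 read, ran from -15.3 to -4.98 and from -20.4 to 29.2. With 3 reads and all plates it was 13.1 for Tie1/-2 deletion, so its sign depended on the rule. The difference in the log2 ratio of S phase to G2/M ran from -0.69 to -0.34 and from -1.13 to 0.98. *Hjurp* passed the threshold for Tie1/-2 deletion without the filter, with DESeq2, and with the layout as a term (adjusted p = 0.0435). *E2f1* passed it without the filter and with DESeq2.

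For Tie1/-2 deletion the difference in cycling share with 1 read was -2.07 points with 4 genes, -0.361 with 100000 counts, and -17.9 without thinning. The difference in the S-only share of cycling wells, few of which stand behind it, was 28.6 points with 8 genes, -2.25 with 25000 counts, -20.6 with 100000 counts, 10.5, 13.1, and 16 with 2, 3, and 5 reads, 26.9 with 3 reads and 8 genes, 20.0 and 9.52 with 3 reads and 25000 or 100000 counts, 38.2 with 3 reads outside the *Oxct1* cluster, and 10.2 with 3 reads outside the clusters led by *Tubb3* and *Gm10800*. In the 10x libraries the Ang2 Ab minus IgG difference in cycling LECs was -5.18 points in cells with a Y-linked transcript alone, that in blood endothelial cells 1.63 in cells with *Xist* alone, and that in the S-only share of cycling LECs -30.5 in cells with *Xist* alone. The cause of these shifts was not tested.

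The replicate numbers of the plates mark no shared animal or day in the labels. Same-numbered plates of a strain share the table layout and have neighboring plate ids, and in the Tie1 strain they share the labelled sex. Over 19877 genes they deviated together only weakly (r = 0.108 in the Tie1 and 0.0946 in the Tie1/-2 strain). This r covers all genes and not the members alone. G2/M sums of Tie1 control and deleted plates were 863 and 548 CPM for number 1 and 157 and 358 for number 2. In the Tie1/-2 strain they were 154 and 286, and 182 and 215. A replicate block was fitted for the plates of the Tie1 strain only, so the Tie1/-2 contrast was not checked for pairing. With this block in the fit 0 genes were called for Tie1 deletion, 210 for Tie1/-2 deletion, 20 for the difference, and 156 for the average, and 0 members in each. Members above 0 were then 27 of 35 for Tie1 deletion, against 18 of 35 without the block.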
